A study of Mus musculus with 28 samples.

Results

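The measure described here is how far apart livers of one group lay in their gene expression, at 24 months of age against 6 and 12 months. The data are 28 arrays, each of the liver of 1 male C57BL/6J mouse with no genetic alteration, and all 28 entered. They held 35556 probe sets, of which 21218 name a single gene and 18820 different genes; the spread was taken over these. For each probe set the mean of each group and the array batch (G150, G151 or G152, the first part of the array names) were taken off, and what remained for a liver, its residual in log2 units, was divided by the square root of 1 minus its leverage. No measured value chose the livers.

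The mice were in a study of intermittent energy restriction. Diets began at 9 weeks of age. The lifelong groups took the intermittent diet throughout, made up of weeks on a freely eaten moderate-fat diet, with 25% of its energy as fat, each followed by 1 week restricted to 60% of the intake of control mice. They were killed at 6 months (6 livers), 12 months (7 livers) or 24 months (7 livers). The switched group (8 livers, 24 months) ate the moderate-fat diet freely until 12 months of age and the intermittent diet from then on. Every mouse in each group went 4 hours without food, then received carboxymethyl cellulose by gavage and went 6 hours more without food before it was killed. All groups therefore share strain, sex and a form of the intermittent diet, no group ate a control diet, and the labels do not say in which week of the diet cycle a mouse died. The 24-month class joins 15 livers of both diet histories and the younger class joins 13 livers of the lifelong diet.

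A mean level says what a typical liver of an age does, while the spread says how unlike each other livers of that age are. A liver is mostly hepatocytes by mass, with resident macrophages (Kupffer cells), sinusoidal endothelial cells, stellate cells and lymphocytes between them. In aged mouse livers, foci of inflammatory cells, fat droplets and nodules are known to differ from animal to animal. PPARA, the nuclear receptor of the fasting response, switches on fatty acid oxidation when fatty acids reach the liver. In RNA of whole tissue, fewer cells of a type and less RNA per cell cannot be told apart.

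The arrays were alike in quality as far as the values show. Array medians ran from 5.23 to 5.31 log2 units, and correlations between arrays from 0.978 to 0.992. Hepatocyte markers, 13 of 15 of which were measured, had a median level of 12.98 log2 units, the labelled tissue. Markers of pancreas, adipose tissue and muscle had a median level of 3.95. Each batch held livers of all 4 groups.

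Livers lay farther apart at 24 months. The spread of a liver, the root mean square of its residuals over the 21218 probe sets, was 0.209 ± 0.0285 log2 units (SD, n = 15) at 24 months and 0.182 ± 0.0120 (SD, n = 13) in younger livers. The difference was 0.0270 (SE 0.00807), a ratio of 1.15 (two-sided permutation test over livers, 100000 resamples, p = 0.00070, Benjamini-Hochberg adjusted over 5 comparisons 0.00175). The spread of 14 of the 15 old livers was above the younger mean, and that of 4 was above every younger liver, so the classes overlapped. Within batches the difference was 0.0295 in G150 (10 against 8 livers), 0.0347 in G151 (2 against 3) and 0.0115 in G152 (3 against 2).

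**Figure D1:**
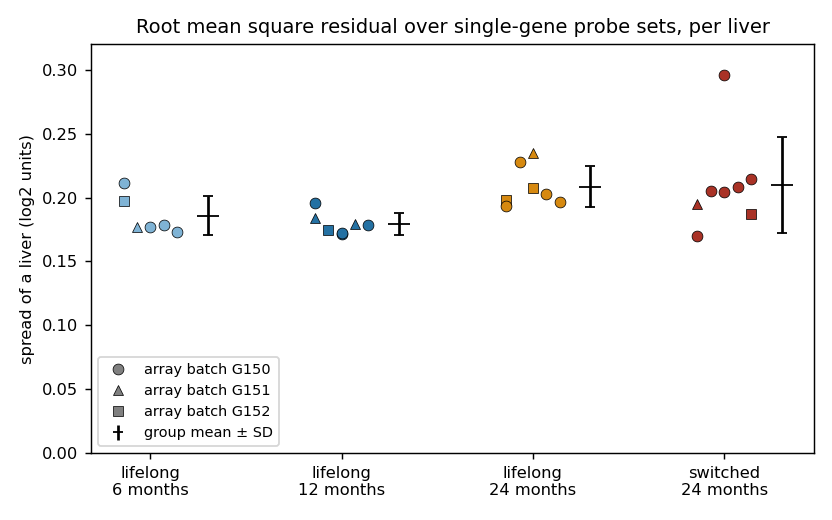
Spread of each of the 28 livers (root mean square scaled residual over 21218 probe sets, log2 units) by group, with the symbol giving the array batch and the bars the group mean ± SD. Replicate 7 of the switched group stood at 0.296, and the 13 younger livers lay between 0.172 and 0.212.

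Both diet histories at 24 months stood apart from the younger livers. In the lifelong group at 24 months, spreads ran from 0.193 through a median of 0.203 to 0.234, and all 7 were above the younger mean. The difference from younger livers was 0.0263 (SE 0.00697, exact two-sided permutation test, p = 0.000645, adjusted 0.00175). In the switched group they ran from 0.170 through 0.205 to 0.296, with a difference of 0.0276 (SE 0.0136, exact permutation test, p = 0.00569, adjusted 0.00948). That group held both the least and the most deviant of the old livers, replicates 6 and 7. Without replicate 7 the difference of the switched group fell to 0.0128 (exact permutation test, adjusted p = 0.0791).

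Switched and lifelong livers of 24 months were not distinguished by their spread. The difference was 0.00136 (SE 0.0146, exact permutation test, p = 0.953, adjusted 0.953). Between 12 and 6 months it was -0.00639 (SE 0.00699, exact permutation test, p = 0.363, adjusted 0.454), with 6-month spreads from 0.173 through 0.178 to 0.212 and 12-month spreads from 0.172 through 0.178 to 0.195. The age difference of 0.0270 lies within 2 standard errors of the difference between switched and lifelong livers.

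Genes far from the fit were mostly more numerous in old livers. Over 18820 genes, with 1 probe set each, the number at least 1 log2 unit from the fit was counted. It ran from 15 through a median of 56 to 273 in old livers and from 12 through 21 to 69 in younger ones. In replicate 7 of the switched group 215 of its 273 such genes were above the fit, and this liver made up 13.1% of the sum of squares of its class. In replicate 4 of the lifelong group at 24 months 113 of 122 were below the fit. The median absolute residual of a liver, which such genes hardly move, was 0.107 ± 0.0101 (SD, n = 15) against 0.1002 ± 0.00455 (SD, n = 13). Its difference of 0.00646 had a permutation p of 0.0280 and no longer passed after adjustment over the 5 comparisons (0.0724).

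The leading axis of the residuals, a single pattern over probe sets that each liver carries to a different degree, held 24.7% of the sum of squares in old livers and 20.1% in younger ones. With the leading axis over all livers taken off, the difference in spread per liver was 0.00199 (permutation p = 0.758). That axis was fitted to these same residuals, so taking it off removes spread by construction, and most from the class that has more. With the mean score of macrophage markers of each liver in the model of the mean, the difference was 0.0107 (permutation p = 0.0793, adjusted 0.198), and these markers are themselves among the widest genes.

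Over the single-gene probe sets the median ratio of residual SD, 24 months over younger, was 0.11 on the log2 scale (quartiles -0.22 and 0.45), and 59.0% had the larger SD at 24 months. The median SD was 0.156 log2 units at 24 months and 0.148 in younger livers. The ratio depended on the level of the gene. Over 5 classes of mean level, from the lowest to the highest, its median was -0.00042, 0.08, 0.17, 0.13 and 0.20. It was 0.22 in the 2632 probe sets whose mean also differed between the age classes and 0.10 in the others.

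No single gene passed the test of spread in the 24-month class. In the limma fit to absolute residuals, adjusted over all 35556 probe sets, 0 of 21218 single-gene probe sets (0%) passed an adjusted p of 0.05 in either direction, the smallest being 0.0517. At an unadjusted p under 0.05, 1598 had the larger spread at 24 months (7.53%) and 684 the smaller (3.22%). The same fit with trended, robust moderation called 20 larger and 1 smaller, an F test of the variances 100 and 10, separate mean fits in each age class 170 and 60, no batch term 92 and 22, and adjustment over single-gene probe sets alone 57 and 5. Leaving out 1 liver at a time gave between 0 and 79 larger (79 without replicate 8 of the switched group) and between 0 and 11 smaller. The genes below are therefore given by their values, and an unadjusted p marks them as leading, not as passing. Counted by gene, with 1 probe set each, 1458 of 18820 (7.75%) had the larger spread at an unadjusted p under 0.05 and 617 (3.28%) the smaller, with a median log2 ratio of 0.11. These are the background for the counts of each gene list. Without replicate 7 of the switched group the background was 6.7% and 3.74%, with a median of 0.07.

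Macrophage genes led the larger spread. All 18 Kupffer cell and macrophage markers had the larger SD at 24 months and 17 of the 18 an unadjusted p under 0.05, with none smaller. Their median log2 SD ratio was 1.41 (lowest 0.65, highest 1.97), which is a median SD of 0.663 log2 units against 0.241. The means of 11 of the 18 were also higher at 24 months and that of 1 lower (limma, adjusted p under 0.05). The median difference in mean was 0.52 log2 units. The SD was alike in both diet histories, with medians of 0.655 in lifelong and 0.697 in switched livers, and 0.265 and 0.204 at 6 and 12 months. Without replicate 7 of the switched group the median ratio was 1.27 and 16 of 18 had an unadjusted p under 0.05. The median was 1.74 within batch G150 and 0.83 in G151 and G152 together. In those last batches the 6-month and switched groups held 1 array per batch, which limits every list median given for them.

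Ms4a7, a membrane protein of macrophages, had the smallest p. Its values ran from 3.93 through 4.29 to 4.52 log2 units in younger livers, from 4.06 through 5.50 to 6.70 in lifelong livers of 24 months and from 4.99 through 5.67 to 7.81 in switched ones. All 8 switched livers were above every younger liver, while replicate 4 of the lifelong group at 24 months lay among the younger ones. Its SD was 1.05 against 0.298 (limma, unadjusted p = 4.47e-06, adjusted 0.0517), and its mean was higher by 1.54 (limma, adjusted p = 0.00169). Leaving out 1 liver at a time moved the adjusted p of its spread between 0.00614 and 0.168. The younger values of Ms4a7 lay within the second-lowest of the 5 classes of mean level (3.74 to 4.98 log2 units). Log2 values are compressed near the lowest levels, and what this adds to its SD ratio was not tested. Clec4n, the fungal lectin Dectin-2, ran from 4.59 through 4.94 to 5.25 in younger livers and from 4.72 through 5.93 to 8.17 at 24 months, an SD of 0.987 against 0.210 (adjusted p = 0.0517).

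Receptors that define resident macrophages spread in the same livers. Vsig4, the complement receptor of Kupffer cells, ran from 9.62 through 10.3 to 10.7 log2 units in younger livers and from 9.93 through 10.95 to 12.02 at 24 months (SD 0.245 and 0.632, limma adjusted p = 0.0597). Adgre1, an adhesion receptor that marks mouse macrophages, had SDs of 0.253 and 0.818 (adjusted p = 0.0635). C1qc, a chain of complement C1q made largely by macrophages, had 0.210 and 0.676 (adjusted p = 0.0762). In each of the 3, replicate 7 was the highest switched liver and replicate 5 the lowest, and replicate 4 was the lowest lifelong liver of 24 months. Lgals3, which encodes galectin-3, and Capg, an actin-capping protein of macrophages, had SDs 3.77 and 2.85 times as large at 24 months (both adjusted p = 0.0517).

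The genes of smallest p also held receptors of leukocytes. Il10ra, a chain of the receptor for interleukin 10, ran from 5.64 through 5.94 to 6.22 in younger livers and from 5.63 through 6.31 to 6.74 at 24 months. Its old livers thus reached as low as the younger ones while many stood higher, and its SD was 3.13 times as large (adjusted p = 0.0517), with no passing change in mean (0.30, limma adjusted p = 0.1001). Csf3r, the receptor for granulocyte colony-stimulating factor, had SDs of 0.145 and 0.559 (adjusted p = 0.0517).

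Pf4, which encodes platelet factor 4, shows a property of the fit. Its values lay between 4.85 and 5.16 log2 units in all 13 younger livers and between 4.98 and 9.20 at 24 months, where lifelong livers had a median of 5.33 and switched livers 6.07. The residual SD of younger livers was nonetheless 0.387, wider than their own values allow, because the batch term is shared between the age classes. The log2 SD ratio of Pf4 was 2.02 with the shared batch term and 3.85 with none, so the ratio given for this gene is on the low side. Over all single-gene probe sets the median log2 ratio was 0.11 with the shared term, 0.12 with none and 0.13 with separate mean fits in each age class.

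**Figure D2:**
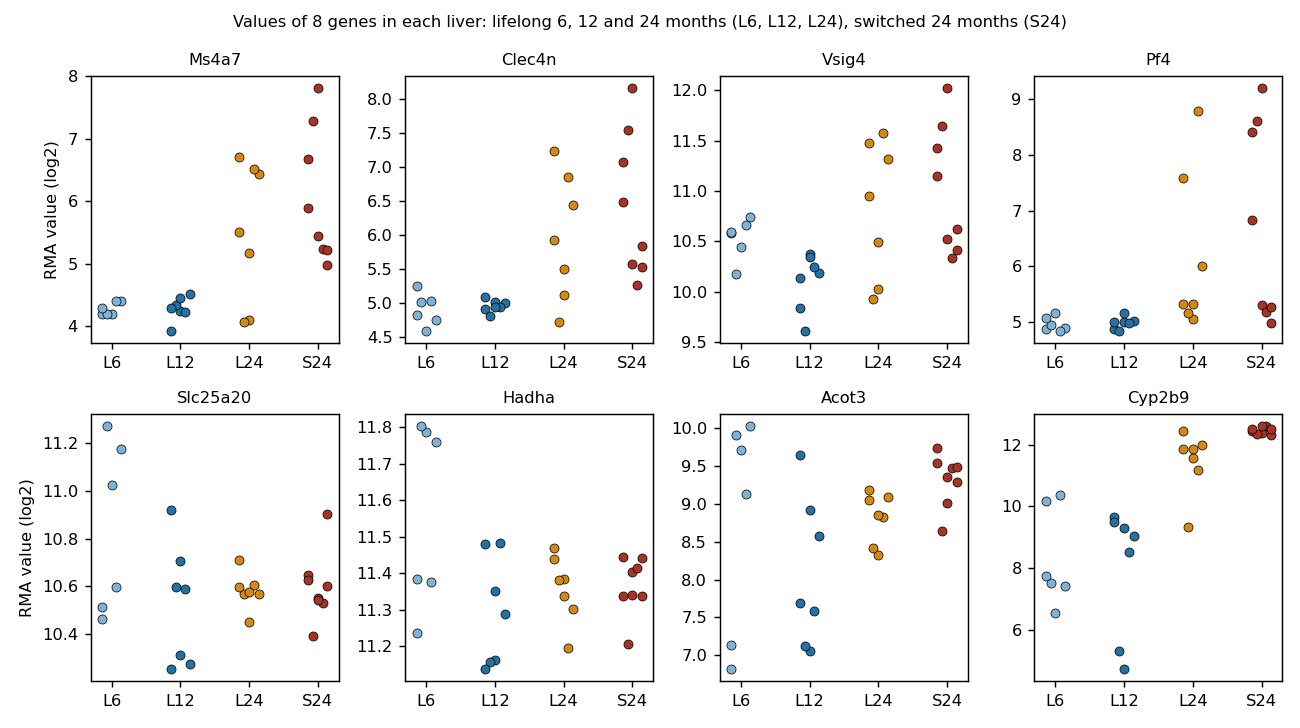
Log2 values of 8 genes in each liver, by group (L6, L12 and L24, lifelong diet at 6, 12 and 24 months; S24, switched at 24 months), each panel on its own axis. The upper 4 genes spread out at 24 months, Pf4 from a range of 4.85 to 5.16 in younger livers to 9.20 in the highest old liver, while the lower 4 were more spread in younger livers.

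To show what genes of these sets carry before their start, the 250 bases upstream are given for Vsig4 and C1qc, whose spread was larger, and for Slc25a20, the fatty acid oxidation gene whose spread was smaller (RefSeq, GRCm38.p6, 5′ to 3′ on the strand of the gene). Capitals mark GGAAGT or its reverse complement, the core bound by ETS factors such as PU.1, the master regulator of macrophages.
Vsig4, chrX:96293439-96293688, minus strand: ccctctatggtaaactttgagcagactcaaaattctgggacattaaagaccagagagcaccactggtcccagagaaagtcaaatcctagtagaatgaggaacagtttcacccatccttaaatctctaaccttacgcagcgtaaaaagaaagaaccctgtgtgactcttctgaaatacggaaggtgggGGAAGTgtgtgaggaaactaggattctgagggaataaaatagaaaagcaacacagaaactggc
C1qc, chr4:136892915-136893164, minus strand: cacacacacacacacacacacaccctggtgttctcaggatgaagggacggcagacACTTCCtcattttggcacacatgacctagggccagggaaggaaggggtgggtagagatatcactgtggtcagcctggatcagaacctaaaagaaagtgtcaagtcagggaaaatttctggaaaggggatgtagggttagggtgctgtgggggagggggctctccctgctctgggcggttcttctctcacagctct
Slc25a20, chr9:108661886-108662135, plus strand: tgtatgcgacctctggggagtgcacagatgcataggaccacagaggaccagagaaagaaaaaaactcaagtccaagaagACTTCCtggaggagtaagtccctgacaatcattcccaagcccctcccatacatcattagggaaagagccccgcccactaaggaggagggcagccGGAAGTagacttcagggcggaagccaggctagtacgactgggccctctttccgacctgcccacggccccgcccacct

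Of the 18 macrophage markers, 14 matched a promoter, and 8 of the 14 held GGAAGT on either strand, against 19.7% of all 32851 promoters of this length. GAGGAA was also in 8 (23.3% of all) and the longer GAGGAAGT, which contains both, in 1 (2.44%). Of the 22 measured genes of fatty acid oxidation, 18 matched. GGAAGT was in 4 of them, GAGGAA and GAGGAAGT in none. AGGTCA, one arm of the sites of many nuclear receptors, was in 4 of these 18 and 4 of the 14 (14.02% of all). The PPAR direct repeat, AGGTCA repeated with 1 free letter between, was in none of either (0.03348% of all). These 5 motifs overlap, and a match describes letters only.

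Genes of chemokine and NF-kB signalling were more spread too. Of 23 measured chemokines and NF-kB targets, 14 had the larger spread at an unadjusted p under 0.05 and 1 the smaller, and the median log2 SD ratio was 0.78. The means of 11 of the 23 were also higher at 24 months and none lower (limma, adjusted p under 0.05). Ccl6, a chemokine of myeloid cells, ran from 7.09 through 7.43 to 7.79 log2 units in younger livers and from 7.23 through 8.01 to 10.5 at 24 months (SD 0.173 and 0.883, limma adjusted p = 0.0898). Cxcl13, the chemokine that draws B cells, had the widest values. It ran from 6.66 through 7.35 to 9.31 in younger livers and from 5.87 through 8.02 to 12.0 at 24 months, with the lowest and the highest of all livers both old (SD 0.790 and 1.94, adjusted p = 0.128). With the macrophage score in the model of the mean the median of this list was 0.12. That score was taken from these same residuals, after seeing the data, and which cells made these signals was not tested.

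Of the other immune lists, 3 of 11 neutrophil, 3 of 11 B cell, 3 of 18 T and NK cell and 3 of 9 MHC class II genes had the larger spread at an unadjusted p under 0.05. One T and NK cell gene had the smaller. Their median log2 SD ratios were 0.81, 0.65, 0.47 and 0.53. In the same order, 5, 8, 6 and 2 genes also had a higher mean at 24 months and none a lower one (limma, adjusted p under 0.05). In G151 and G152 together the B cell median was 0.10 and the MHC class II median 0.16. Cd74, the invariant chain of MHC class II, had SDs of 0.431 and 0.815 (limma adjusted p = 0.458). Igkc, the constant part of the kappa light chain of antibodies, ran from 4.35 through 4.81 to 7.93 in younger livers and from 5.77 through 7.84 to 10.1 at 24 months. Its mean was higher by 2.53 (limma adjusted p = 0.000481), while its SDs were 0.807 and 1.34 (adjusted p = 0.426). Igkc is in the plasma cell list, where 4 of 8 measured genes had the larger SD at 24 months (median ratio 0.33). At an unadjusted p under 0.05, 3 of the 8 were larger and none smaller, with 1 larger without replicate 7 of the switched group. Interferon response genes had a median ratio of 0.0047 (5 of 24 larger, none smaller), and MHC class I genes one of -0.22 (none of 11 larger, 1 smaller).

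Marker genes of cells that line and scaffold the liver followed. All 15 endothelial markers had the larger SD at 24 months, 5 of them at an unadjusted p under 0.05, with a median ratio of 0.89; it was 1.18 within batch G150 and -0.08 in the other batches together, and 0.67 with 3 of 15 without replicate 7 of the switched group. Cdh5, the junction protein VE-cadherin, had SDs of 0.124 and 0.353 (limma adjusted p = 0.225). Of 25 collagen and stellate cell genes 23 had the larger SD and 8 an unadjusted p under 0.05 (median ratio 0.59). The means of 10 of the 25 were also higher at 24 months and none lower (limma, adjusted p under 0.05). Mmp2, a gelatinase that cuts matrix, ran from 6.00 through 6.29 to 6.86 in younger livers and from 5.88 through 6.57 to 7.33 at 24 months, an SD 2.33 times as large (adjusted p = 0.0583). Its mean did not pass (0.34, adjusted p = 0.125).

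Genes of dividing cells and of blood cells were part of the same description. Of 20 cell cycle genes 19 had the larger SD and 7 an unadjusted p under 0.05 (median ratio 0.67). The means of 10 of the 20 were also higher at 24 months and none lower (limma, adjusted p under 0.05). Ccna2, cyclin A2, ran from 4.40 through 5.04 to 5.17 in younger livers and from 4.81 through 5.58 to 6.29 at 24 months (SD 0.184 and 0.504, limma adjusted p = 0.131). Only 5 of 14 listed genes of red blood cells were measured, and 3 of the 5 had the larger spread at an unadjusted p under 0.05 (median ratio 0.91). Slc4a1, the anion exchanger of the red cell membrane, had SDs of 0.159 and 0.675 (adjusted p = 0.182), with replicate 3 of the lifelong group highest at 6.86 log2 units.

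The scores of a liver, its mean scaled residual over a list, show which livers made up these spreads. For Kupffer cell and macrophage markers, scores ran from -0.26 to 0.25 in younger livers and from -0.88 to 1.14 at 24 months, and 12 of 15 old livers lay outside the younger range, 6 above it and 6 below. That scores of a group lie on both sides of 0 follows from taking off its mean, so only their reach describes spread. The highest was replicate 7 of the switched group (1.14) and the lowest were replicate 4 of the lifelong group (-0.88) and replicate 5 of the switched group (-0.74). For endothelial markers the same livers were the highest (0.37) and the 2 lowest (-0.34 and -0.22). For chemokines and NF-kB targets replicate 7 was again the highest (0.85) and replicate 4 of the lifelong group the lowest (-0.66), followed by replicates 3 and 5 of the switched group (-0.60 and -0.59). For collagen and stellate cell genes 11 of 15 old livers lay outside the younger range, but replicate 7 of the switched group scored only 0.11 there.

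**Figure D3:**
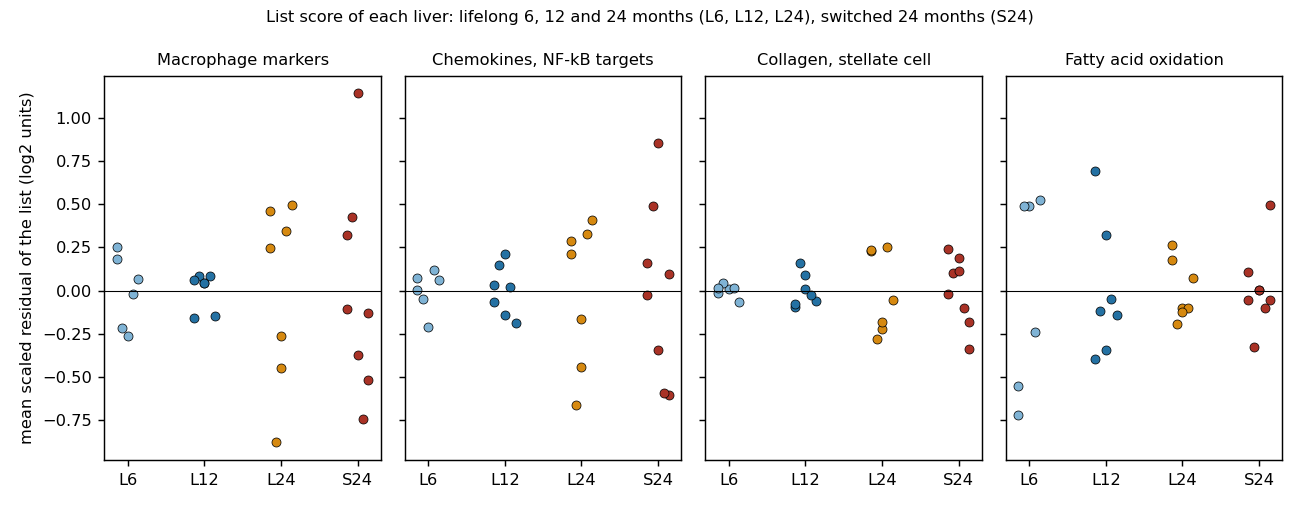
Mean scaled residual (log2 units) of each liver over 4 gene lists, by group. Macrophage scores ran from -0.88 to 1.14 at 24 months and from -0.26 to 0.25 in younger livers, and fatty acid oxidation scores from -0.33 to 0.49 at 24 months and from -0.72 to 0.69 in younger livers.

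Hepatocyte functions divided. Of 21 measured genes that are higher in male liver, 8 had the larger spread at an unadjusted p under 0.05 and 1 the smaller (median ratio 0.75). The means of 20 of the 21 were lower at 24 months (limma, adjusted p under 0.05). Slco1a1, an organic anion transporter of male liver, ran from 11.03 through 11.3 to 11.6 in younger livers, from 8.26 through 10.7 to 11.2 in lifelong livers of 24 months and from 8.07 through 8.75 to 10.7 in switched ones. No switched liver reached the younger range, and the old livers covered far more of the scale (SD 0.197 and 0.965, limma adjusted p = 0.178). Susd4, a complement regulator, had an SD 3.47 times as large (adjusted p = 0.229).

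Fat storage genes went both ways, with 3 of 17 larger and 3 smaller at an unadjusted p under 0.05 and a median ratio of 0.18. Cidea, a lipid droplet protein that marks fatty liver, was the widest of them. It ran from 3.58 through 4.07 to 4.66 log2 units in younger livers, from 3.55 through 4.77 to 8.37 in lifelong livers of 24 months and from 4.18 through 8.03 to 9.18 in switched ones. Replicate 7 stood lowest in both 24-month groups, within the younger range in the switched group and just below it in the lifelong group. The SD was 4.20 times that of younger livers (limma adjusted p = 0.182). Younger values of Cidea were near the lowest levels, where log2 values are compressed, and what this adds to its ratio was not tested.

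Hepatocyte markers and respiratory chain subunits varied little in absolute terms, and endoplasmic reticulum chaperones more. Hepatocyte markers had median SDs of 0.0704 log2 units at 24 months and 0.0594 in younger livers. Their median ratio was 0.30, with 1 of 13 larger at an unadjusted p under 0.05. Respiratory chain subunits had median SDs of 0.112 at 24 months and 0.0788 in younger livers (median ratio 0.60). The SD of 25 of 27 was larger at 24 months, 3 at that threshold. Without replicate 7 of the switched group the ratio was 0.29, with 1 of 27 at that threshold. Endoplasmic reticulum chaperones and unfolded protein response genes had median SDs of 0.259 at 24 months and 0.180 in younger livers (median ratio 0.56). The SD of 19 of 22 was larger at 24 months, 4 at an unadjusted p under 0.05. Pdia6, a disulphide isomerase, had SDs of 0.134 in younger livers and 0.315 at 24 months (limma adjusted p = 0.169). Ribosomal protein genes (0.09, 0 of 23 either way) and proteasome subunits (0.05, 2 of 24 smaller) lay near the background of 0.11.

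The opposite was found for fatty acid oxidation. Of 22 measured PPARA targets and fatty acid oxidation genes, 21 had the smaller SD at 24 months and 13 an unadjusted p under 0.05, with none larger; Cpt1a alone had the larger SD. The median log2 SD ratio was -0.73 (lowest -1.36), a median SD of 0.232 log2 units against 0.367 in younger livers. By group the median SD was 0.391 at 6 months, 0.323 at 12 months, 0.235 in lifelong and 0.223 in switched livers of 24 months. Against the 6- and 12-month livers pooled, the means of these genes were close to level at 24 months. Of the 22, 1 was higher and none lower (limma, adjusted p under 0.05). With batch still in the values, the mean level of the list ran from 10.16 to 11.30 log2 units at 6 months. At 12 months it ran from 9.98 to 10.92, and a difference in mean between these 2 ages was not tested. The median was -0.99 within G150, -0.64 in G151 and G152 together and -0.74 without replicate 7 of the switched group. Leaving out 1 liver at a time gave -0.79 to -0.55, the smallest change in SD being without replicate 1 at 6 months.

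Slc25a20, the carrier that brings acylcarnitines into mitochondria, led them. It ran from 10.5 through 10.8 to 11.3 log2 units at 6 months and from 10.3 through 10.6 to 10.9 at 12 months, but from 10.4 through 10.6 to 10.7 in lifelong and 10.4 through 10.6 to 10.9 in switched livers of 24 months. The old values lay inside the range of the younger ones (SD 0.124 at 24 months and 0.320 in younger livers, limma adjusted p = 0.0597). Hadha, the alpha chain of the mitochondrial trifunctional protein, had SDs of 0.0933 at 24 months and 0.203 in younger livers (adjusted p = 0.124). Acot3, a peroxisomal acyl-CoA thioesterase, ran from 6.82 through 8.58 to 10.0 in younger livers and from 8.32 through 9.10 to 9.74 at 24 months, an SD of 0.485 against 1.13 (adjusted p = 0.111).

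Younger livers reached farther than old ones on both sides for these genes. The scores of PPARA targets and fatty acid oxidation ran from -0.72 to 0.69 in younger livers and from -0.33 to 0.49 at 24 months, and 6 of 13 younger livers lay outside the range of the old ones. At 6 months replicates 2, 3 and 4 scored 0.49, 0.53 and 0.49, and replicates 1, 5 and 6 scored -0.72, -0.24 and -0.55. At 12 months replicate 1 was highest (0.69) and replicate 6 lowest (-0.40). No label used here separates those livers within a group.

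Cholesterol synthesis genes leaned the same way, with 19 of 20 smaller in SD at 24 months, 3 at an unadjusted p under 0.05 and a median ratio of -0.44; it was -0.72 within G150 and 0.0041 in G151 and G152 together. Hsd17b7, a reductase of the late pathway, had SDs of 0.246 at 24 months and 0.470 in younger livers (limma adjusted p = 0.314). Bile acid synthesis and transport did not follow as a list. Of its 19 measured genes 11 had the larger SD, 3 were larger (Abcc2, Abcg5 and Cyp7b1) and 1 smaller at an unadjusted p under 0.05, and the median ratio was 0.29, with 1 larger without replicate 7 of the switched group. The smaller one was Cyp7a1, the rate-limiting enzyme of bile acid synthesis. It ran from 8.98 through 11.2 to 12.1 log2 units in younger livers and from 10.6 through 11.2 to 11.9 at 24 months. Its SD was 0.393 at 24 months and 0.873 in younger livers (limma adjusted p = 0.176). Fgfr4, the hepatocyte receptor through which an intestinal growth factor restrains Cyp7a1, had SDs of 0.156 at 24 months and 0.334 in younger livers (adjusted p = 0.0996).

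Of 18 measured genes that are higher in female liver, 13 had the larger SD, 3 were larger and 2 smaller at an unadjusted p under 0.05, and the median ratio was 0.55. The means of 10 were higher at 24 months (limma, adjusted p under 0.05). Cyp2b9, a cytochrome P450 of female mouse liver, was one of the 2 smaller, with Acot3. It ran from 6.55 through 7.64 to 10.4 log2 units at 6 months, from 4.75 through 9.04 to 9.64 at 12 months, from 9.34 through 11.9 to 12.4 in lifelong and from 12.3 through 12.5 to 12.6 in switched livers of 24 months. The 8 switched livers were nearly alike and above every younger liver. The mean was higher by 3.89 (limma adjusted p = 4.25e-05), and the SD 0.436 times that of younger livers (adjusted p = 0.124). P3h4, of a family of collagen-modifying proteins, and Abca8b, a membrane transporter, had SD ratios of 0.321 and 0.508 (both adjusted p = 0.0718) with no passing change in mean.

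**Figure D4:**
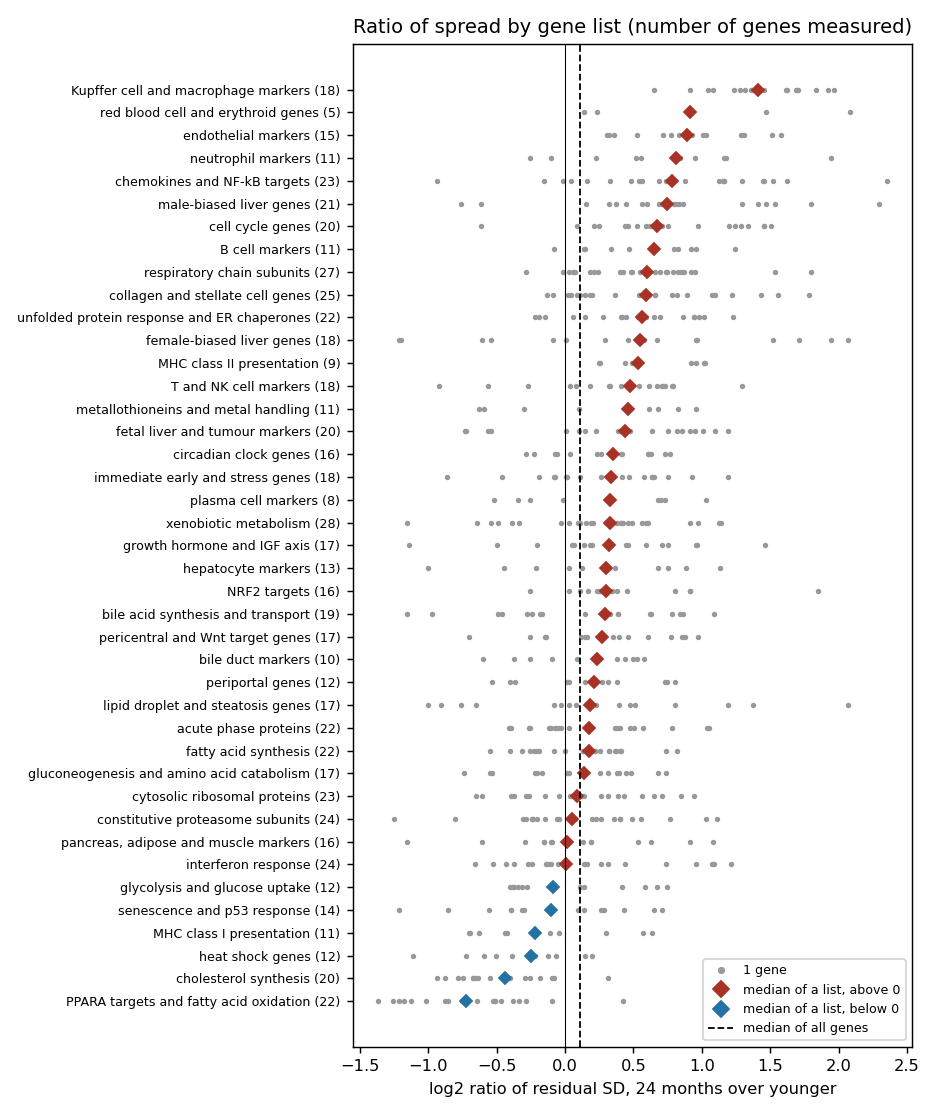
Log2 ratio of residual SD, 24 months over younger livers, for the measured genes of 41 lists (grey dots) with the median of each list (diamonds), the number of genes in brackets and the median of all 18820 genes as a dashed line at 0.11. Macrophage markers had the highest median (1.41) and PPARA targets and fatty acid oxidation the lowest (-0.73).

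A handful of genes passed when the 24-month groups were taken one at a time. In lifelong livers of 24 months against younger ones 1 single-gene probe set of 21218 passed (0.00471%), Klra17 (limma adjusted p = 0.0272). Klra17, of the Ly49 receptor family, had a low mean of 2.62 log2 units. Its largest residual was in replicate 6 of the lifelong group at 24 months. At an unadjusted p under 0.05, 6.11% were larger and 2.83% smaller. In switched livers 10 passed as larger (0.0471%) and 2 as smaller (0.00943%), with 8.06% and 3.03% at the unadjusted threshold. The larger ones included Csf3r and Ccl6 (both adjusted p = 0.0414) with Sult3a1, a sulphotransferase of female liver (adjusted p = 0.000254). The smaller ones were Cdk3 and P3h4 (both adjusted p = 0.0441). In 6 of the 10 larger ones (Csf3r, Ccl6, Ms4a8a, Atp8b4, Snord104 and Gm5622) the largest residual was that of replicate 7 of the switched group; the others were Sult3a1, Ttc39a, Glod5 and Map7d3. Leaving out 1 liver at a time moved the count of lifelong calls between 0 (without replicate 1 at 6 months, among others) and 22 (without replicate 7 of the switched group). It moved that of switched calls between 3 (without replicate 7 of the lifelong group at 24 months) and 192 (without replicate 6 of the switched group).

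Between switched and lifelong livers of 24 months, 2 single-gene probe sets passed as larger in switched livers (0.00943%), Sult3a1 and Snord104, a small nucleolar RNA, and Klra17 as smaller (0.00471%). For Sult3a1 the SD was 1.18 log2 units in switched and 0.113 in lifelong livers of 24 months (limma adjusted p = 0.00104), at a low mean of 2.76. Between 12 and 6 months 4 passed, all with the smaller spread at 12 months (0.0189%): Slc35f1, Esr1 (the oestrogen receptor), Prrg4 and Arhgef19. Esr1 had SDs of 0.725 at 6 and 0.214 at 12 months (limma adjusted p = 0.0344). At an unadjusted p under 0.05, 4.08% were larger and 3.73% smaller in switched than in lifelong livers, and 3.13% larger and 4.13% smaller at 12 than at 6 months. The genes of these last counts were named after their values were seen.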

How the data were processed

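Each sample was a Mouse Gene ST array of liver RNA. The values are log2 expression summaries that the authors made with RMA, per the submitters' processing notes, and deposited as 1 table; versions are not given in the sources used here. No value was changed. Probe sets were named from the platform annotation (21218 with 1 gene, 1881 with several, 12457 with none), and the first part of each array name was taken as the batch, as it reads.

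In R 4.3.3, group and batch were fitted per probe set and residuals scaled for leverage. Spread per liver was compared with permutation tests (100000 resamples where both arms held at least 10 livers, exact otherwise). Per probe set, limma 3.58.1 compared absolute scaled residuals, Benjamini-Hochberg adjusted over all 35556 probe sets. On simulated data it recovered directions and few known differences after adjustment, and the batch term shared by the age classes understated ratios of SD, so a count of 0 does not show equal spreads. Labels give mouse identifiers but no cages or litters. The number of arrays limits the precision.

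Of genes above the 30th percentile of level, the rule named the 14 of larger and 8 of smaller spread with the smallest p, none passing, and up to 3 members of each of 41 lists; predicted genes and small RNAs were passed over. Of a gene with several probe sets the highest in level stood. The members and lists were chosen with earlier results of these data known. List members with no single-gene probe set were not analysed here. Alternatives changed the batch term, mean model, centre, normalization, filter, moderation, test and arrays.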

Additional observations from a re-analysis of the deposited data

Results flagged for a closer look

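Of 312 groups of livers examined for a liver far from the others (spreads, list scores and named genes), 15 had one, and chance gives about 1 in 20. Replicate 7 of the switched group stood apart in spread (0.296, next 0.215), in its median absolute residual (0.137, next 0.107) and in its score over endothelial markers (0.37, next 0.04). Scores over male-biased genes stood apart in replicate 1 at 12 months (-0.30, next -0.02) and replicate 3 of the switched group (0.68, next 0.09). Scores over hepatocyte markers did so in replicate 1 at 6 months (0.0806, next 0.0059) and replicate 6 at 12 months (-0.0800, next -0.0015).

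Among genes of macrophages, Lgals3 was low in replicate 4 at 12 months (6.62 log2 units, next 7.07), Capg in replicate 2 at 12 months (4.69, next 5.29), and Cxcl13 was high in replicate 7 at 12 months (8.57, next 7.41). Igkc was high in replicate 6 at 6 months (4.80, next 4.45), and Timp2, an inhibitor of matrix proteases, was low in replicate 1 at 12 months (7.44, next 7.82). In the lifelong group at 24 months Slco1a1 was low in replicate 1 (8.26, next 10.6) and Cyp2b9 in replicate 4 (9.34, next 11.2). Hadha was low in replicate 4 of the switched group (11.2, next 11.3). These gene values were examined with the batch still in them. Replicate 4 at 12 months and replicate 6 at 6 months were the only G152 arrays of their groups, so their flags cannot be told apart from batch.

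The spread of 3 genes differed between switched and lifelong livers of 24 months by a test of that difference. The limma adjusted p was 0.00104 for Sult3a1, 0.0175 for Snord104 and 0.0200 for Klra17.

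Outside the single-gene probe sets, 2 probe sets that name several genes passed in the main comparison. Probe set 10587690 names 3 genes and had SDs of 0.153 in younger and 0.555 in old livers (limma adjusted p = 0.0213). Probe set 10595633 names 4 genes and had SDs of 0.155 and 0.533 (adjusted p = 0.0213). Their genes cannot be told apart on this array.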

How the results depend on the processing

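The difference in spread per liver between 24 months and younger livers kept its sign in every alternative run. It was 0.00199 with the leading axis taken off (permutation p = 0.758), 0.00646 as median absolute residual, 0.0107 with the macrophage score as a covariate (chosen after seeing the data) and 0.0218 with a replicate block beside batch (permutation p = 0.0209, adjusted 0.0851). Under those settings, in that order, the lifelong difference was 0.00680, 0.00548, 0.0135 and 0.0219, and it was 0.0241 in batch G150 and 0.0323 in G151 and G152, adjusted p between 0.0606 and 0.703 in all 6. The switched difference was -0.00221, 0.00732, 0.00823 and 0.0217, with 0.0167 in G151 and G152 and 0.0285 about group medians, and its call was lost in all 6 (adjusted p 0.758, 0.0724, 0.356, 0.0856, 0.179 and 0.0544). Switched against lifelong turned to -0.0155 in G151 and G152, -0.000187 with the block, -0.00901 without the leading axis, -0.00525 with the macrophage score and -0.0142 without switched replicate 7 and 6-month replicate 1. Between 12 and 6 months it turned to 0.00764 with the block, 0.000422 as median absolute residual and 0.000213 without those 2 livers. Leaving out 1 liver at a time gave 0.0201 to 0.0307 for the main difference, 0.0201 to 0.0298 for lifelong, 0.0128 to 0.0342 for switched, -0.0146 to 0.00817 between them and -0.00921 to 0.000787 between 12 and 6 months.

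Counts of probe sets that passed moved with many settings, and the cause was not tested. In G151 and G152 alone, the 6-month and switched groups held 1 array per batch. Fitting group and batch then makes the absolute residuals within each of those groups equal by construction. The counts given below for those batches are therefore not a test of spread. The same holds for the permutation p-values per liver given above for them, since livers within each of those groups then have equal spreads. Larger at 24 months were 92 with no batch term, 170 with separate mean fits, 11 with the replicate block, 20 after repeated quantile normalization, 1 after median centring, 27 without the lowest 30 percent, 100 by F test, 20 with trended moderation, 57 adjusted over single-gene probe sets and 1 with the macrophage score. Smaller were 22, 60, 1, 2, 0, 2, 10, 1, 5 and 1 in that order, with 3 in G150 and 1 without the leading axis. Lifelong calls were 15 with no batch term, 23 in G150, 0 in the other batches, 0 with batch as a term for the spread, 36 with separate fits, 0 about medians, 0 with the block, 2 after quantile normalization, 3 after centring, 0 without low probe sets, 7 without the arrays with an added suffix, 0 without the leading axis, 0 from squared residuals, 11 with trended moderation, 5 adjusted over single-gene probe sets, 13 without those 2 livers and 0 with the macrophage score. Switched calls were 112, 2, 1882, 6, 84, 1 and 0 for the first 7 of these, then 5 without low probe sets, 1 without the suffixed arrays, 1 without the leading axis, 7 where means did not differ, 0 from squared residuals, 123 with trended moderation, 70 over single-gene probe sets, 3 without those 2 livers and 1 with the macrophage score. Switched against lifelong had 5 with no batch term, 18 in G150, 1290 in the other batches, 0 with separate fits, 1 about medians, 0 with the block, 1 without low probe sets, 0 without the leading axis, 0 from squared residuals, 5 over single-gene probe sets, 1 without those 2 livers and 0 with the macrophage score. Between 12 and 6 months they were 20, 9, 1197, 1, 1 and 0 for the first 6 of these, then 9 without the leading axis, 10 from squared residuals, 2 with trended moderation, 10 over single-gene probe sets, 0 without those 2 livers and 2 with the macrophage score. Over left-out livers the counts ran from 0 to 79 larger, 0 to 11 smaller, 0 to 22 for lifelong, 3 to 192 for switched, 1 to 6 between those and 0 to 19 between 12 and 6 months.

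The median log2 SD ratio of probe sets was -0.0096 without the leading axis and 0.0775 to 0.134 over left-out livers. List medians turned sign in G151 and G152 together for endothelial markers (-0.0836), cholesterol synthesis (0.0041) and hepatocyte markers (-0.17), and without the leading axis for MHC class II (-0.22) and hepatocyte markers (-0.00081). No other of the 12 list medians examined turned sign, but 46 values moved by more than the SD between livers (0.15). Without the leading axis macrophage markers had 0.41, chemokines 0.32, collagen genes 0.17 and B cell markers 0.25, and with the macrophage score collagen genes had 0.22 and MHC class II 0.09. With the replicate block male-biased genes had 0.39 and cell cycle genes 0.41. No named gene turned sign over left-out livers, with no batch term, in G150, with the block or after quantile normalization, the settings run for genes. Batch as a term for the spread was not run for the spread per liver. Livers of different groups with the same replicate number were no more alike than others by median correlation. This used values less the group mean, with batch still in them. Over 39 pairs of the same number, correlations ran from -0.21 to 0.24, with a median of -0.02 against -0.0015 for other numbers. It does not settle whether the numbers pair the mice. The block left switched replicate 8 without a residual. Genes near the lowest levels had compressed log2 values, which limits their ratios.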

Other observations

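A few genes of lists not described so far had larger spreads at 24 months, none passing the adjusted test. Hmox1, the haem-degrading enzyme and an NRF2 target, ran from 7.88 through 8.25 to 8.50 log2 units in younger livers and from 7.81 through 8.65 to 10.4 at 24 months (SD 0.210 and 0.754, limma adjusted p = 0.0996). Its log2 SD ratio of 1.85 was the largest of the 16 NRF2 targets, whose median was 0.30; 3 of the 16 were larger at an unadjusted p under 0.05, and 1 without replicate 7 of the switched group. Saa3, an acute phase protein, had SDs of 0.356 and 0.737 (adjusted p = 0.176), in a list of 22 with a median ratio of 0.18 and 2 larger, close to the background. Igfbp2, a binding protein of insulin-like growth factors, had SDs of 0.149 and 0.412 (adjusted p = 0.165) at a mean lower by 0.73 (limma adjusted p = 0.000359). Its younger livers lay between 10.6 and 11.5 and its old livers between 9.58 and 10.95.

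Of 12 heat shock genes 10 had the smaller SD at 24 months, with a median ratio of -0.25, but 1 had an unadjusted p under 0.05 and none passed the adjusted test. Hsp90aa1, the inducible cytosolic chaperone HSP90, ran from 9.86 through 10.2 to 10.8 in younger livers and from 9.89 through 10.1 to 10.3 at 24 months (SD 0.287 and 0.133, adjusted p = 0.419). Circadian clock genes had a median ratio of 0.35, with 0 of 16 past an unadjusted limma p of 0.05 in either direction. Glycolysis genes (-0.08, 0 of 12) and senescence and p53 response genes (-0.10, 1 of 14 larger and 2 smaller) lay close to 0.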
